A study of Mus musculus with 12 samples.

Results

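A listed set of 7 immunoglobulin-type cell adhesion molecules was followed in cultured mouse oligodendrocyte precursor cells (OPCs): Icam1, Vcam1, Ncam1, Alcam, Mcam, Jam2 and Jam3. The 7 members were taken by symbol from 55536 genes in the deposited transcript tables, each symbol matched 1 gene identifier, and all 7 were among the 17919 genes with enough reads to test. Brains of several pups aged P4 to P6 were pooled for each culture, and the cells are labelled Sox10GFP+ OPCs. They were isolated either by sorting for Sox10-GFP, a reporter made by crossing Sox10:Cre with RCE:loxP (EGFP) mice, which labels the whole oligodendrocyte lineage, or on magnetic beads against CD140a, the PDGF receptor of these cells. Which library came from which isolation is not given in the labels. All cultures were grown with the mitogens PDGFaa and bFGF, and formed 3 groups. Ctr-OPCs received no treatment. The Dexa group received the glucocorticoid drug dexamethasone at 1 µM, and IFN-γ-treated OPCs the inflammatory cytokine IFN-γ at 100 ng/ml, each over 48 h. The labels also give EAE, a model of multiple sclerosis, as the mouse model of every sample, control cultures included.

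Each group has 4 replicates from different litters, and the replicate numbers are shared by the groups. The table of Dexa replicate 3 stops part-way and lists 0 of the 7 members, so the Dexa group holds 3 libraries here. The 11 complete libraries held between 19209063 and 52074652 reads in genes. Of 8 OPC markers, 8 were expressed, with a summed level of 808 to 1886 TPM (reads per transcript length, scaled to a common total) in Ctr-OPCs, whereas all 8 endothelial and all 8 microglial and macrophage markers stayed under 1 TPM in every library. Astrocyte markers were present (8 of 8 expressed, summed level 149 to 317 TPM in Ctr-OPCs, 308 to 477 TPM in Dexa and 269 to 435 TPM in IFN-γ-treated OPCs). Neuron markers summed to 128 to 255 TPM in Ctr-OPCs, with Map2 alone at a mean of 191 TPM and 5 of 8 under 1 TPM in every library. Oligodendrocyte markers summed to 57.6 to 222 TPM in Ctr-OPCs, with Cnp at a mean of 123 TPM and 4 of 8 under 1 TPM in every library. In such bulk samples, fewer cells of a type and less RNA per cell cannot be told apart.

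Immunoglobulin-type adhesion molecules are single-pass or lipid-anchored surface proteins whose outer part is a chain of immunoglobulin-like domains. Some bind integrins of circulating leukocytes and are known from the inflamed vessel wall, others bind the same protein or a close relative on a neighbouring cell. Icam1 and Vcam1 are the ligands of leukocyte integrins and are classical targets of inflammatory cytokines. Ncam1 and Alcam act mainly in contacts between neural cells, Mcam is best known from vessels and binds laminin, and Jam2 and Jam3 bind each other at cell contacts.

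In IFN-γ-treated OPCs 3 members were higher than in Ctr-OPCs (Icam1, Vcam1 and Jam3), 3 were lower (Ncam1, Jam2 and Alcam) and Mcam did not pass the test. The changes ran from a 129-fold rise of Icam1 to a 1.38-fold fall of Alcam. The test was the quasi-likelihood test of edgeR, blocked by replicate number, and a gene was called at an adjusted p under 0.05 over all genes tested. By the same rule 31.3% of all genes tested were called, 16% higher and 15.3% lower, so calls in either direction were common in this comparison. Without the block edgeR called 2 members, Icam1 and Jam3, beside 8.44% of all genes tested. In Dexa 0 of the 7 members were called.

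**Figure D1:**
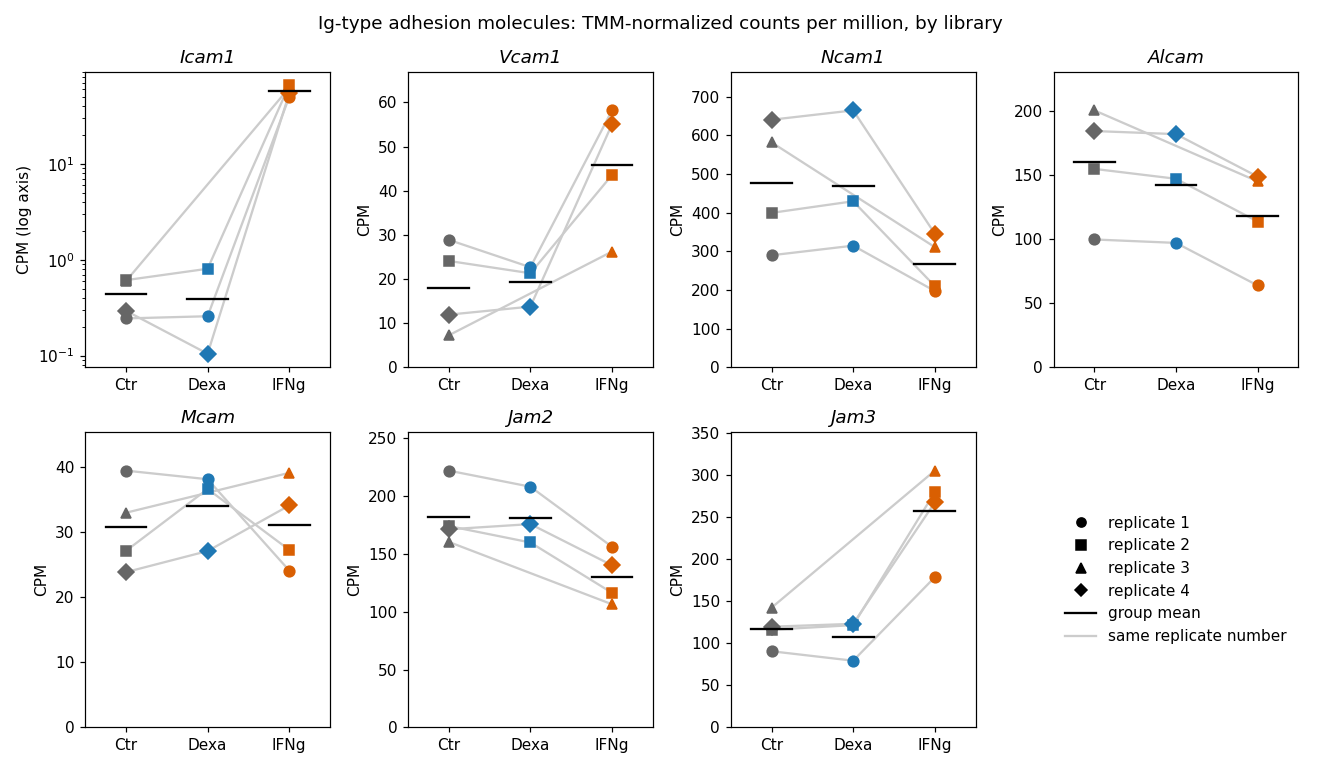
Normalized read counts of the 7 members by library, in CPM (counts scaled to a common library size with TMM factors), with a log axis for Icam1 and linear axes from 0 for the others; symbols give the replicate number, grey lines join libraries of the same number and black bars are group means. All 4 IFN-γ libraries lie above all others for Icam1 (49.8 to 66.0 CPM) and Jam3 (179 to 305 CPM), while for Ncam1 and Alcam every line falls from Ctr to IFNg although the groups overlap.

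Icam1 encodes the ligand of the leukocyte integrins LFA-1 and Mac-1 and lies on the plus strand at chr9:21015985-21028817 (GRCm38, ENSMUSG00000037405). The 250 bases before its RefSeq start, chr9:21015690-21015939 of GRCm38.p6 on the plus strand, are shown because Icam1 had the largest change of the 7 members, with a match to the gamma-activated site (TTCNNNGAA, searched on both strands) and to a GC box (GGGCGG, or CCGCCC on the other strand) in capitals.
Icam1: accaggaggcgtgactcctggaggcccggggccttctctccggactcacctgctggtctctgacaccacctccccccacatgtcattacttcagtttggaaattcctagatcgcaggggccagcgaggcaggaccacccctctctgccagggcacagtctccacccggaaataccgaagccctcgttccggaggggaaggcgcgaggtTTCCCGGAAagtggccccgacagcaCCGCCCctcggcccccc

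The match TTCCCGGAA lies at bases -42 to -34 from the start and the GC box at -17 to -12, and a second GC box, CCGCCC, lies at bases 24 to 29 after the start. A match to the gamma-activated site was found in 8.3% of the 32851 mouse promoters of the RefSeq table and a GC box in 35.7%, each over 300 bases around the start. The table held a promoter for 3 of the 7 members. Those of Alcam and Mcam held 2 and 5 GC boxes and no gamma-activated site. Also searched on both strands were the core of the interferon-stimulated response element (ISRE, 3.44% of all promoters) and an NF-κB pattern (4.51%). The palindromic glucocorticoid response element (0.00913%) and the AP-1 motif TGANTCA (7.81%) were searched in the same way. None of these matched in the 3 windows, but a site with letters other than those searched, NF-κB sites included, would have been missed. The TATA box TATAAA (13.6%), searched likewise, matched Icam1 at bases 14 to 19 after the start. All these positions are counted from the RefSeq start. The gene start given above for Icam1, 21015985, lies further downstream, and counted from there every Icam1 match lies upstream. A match is a description of the letters and does not show binding.

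In Ctr-OPCs Icam1 was near the floor of detection, with 9, 33, 29 and 9 reads in replicates 1 to 4, or 0.245, 0.613, 0.600 and 0.293 CPM. In Dexa it was at 0.258, 0.806 and 0.105 CPM in replicates 1, 2 and 4. In IFN-γ-treated OPCs it reached 49.8, 66.0, 62.1 and 54.3 CPM. The IFN-γ libraries stood far above both other groups, with no overlap, whereas Ctr and Dexa libraries were intermingled. The group means were 0.438 ± 0.196 CPM (SD, n = 4) in Ctr-OPCs and 58.0 ± 7.37 CPM (SD, n = 4) in IFN-γ-treated OPCs. Icam1 rose by 7.01 ± 0.20 on the log2 scale (SE; adjusted p = 1.78e-09, edgeR), and the difference within replicates was 7.37, 6.62, 6.56 and 7.27. The call also held without the replicate block (adjusted p = 1.64e-06, edgeR).

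Vcam1 encodes the ligand of integrin VLA-4 on lymphocytes and monocytes (chr3:116109949-116129688, minus strand, ENSMUSG00000027962). It stood at 28.8, 24.1, 7.22 and 11.9 CPM in Ctr-OPC replicates 1 to 4, at 22.6, 21.3 and 13.7 CPM in Dexa replicates 1, 2 and 4, and at 58.2, 43.5, 26.2 and 55.0 CPM in IFN-γ-treated OPCs. In Ctr-OPCs replicates 3 and 4, whose sample titles share a prefix, were lower than 1 and 2. Replicate 3 was lowest in both of its groups, and its IFN-γ library lay below Ctr replicate 1, so the groups overlapped. Within every replicate the IFN-γ library was the higher, by 1.01, 0.85, 1.85 and 2.20 on the log2 scale. Vcam1 rose by 1.46 ± 0.19 on the log2 scale, or 2.76-fold (SE; adjusted p = 2.65e-04, edgeR with the replicate block). Without the block the adjusted p was 0.0773 by edgeR and 0.0136 by DESeq2.

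The summed level of the 8 astrocyte markers moved in the same direction as Vcam1 between Ctr and IFN-γ. In replicates 1 to 4 it was 317, 299, 149 and 209 TPM in Ctr-OPCs and 413, 435, 269 and 383 TPM in IFN-γ-treated OPCs, with 3 markers called higher, among them Gfap (log2 change 3.99 ± 0.36, adjusted p = 1.86e-05, edgeR), and 3 called lower, among them S100b. Of all genes tested 16% were called higher and 15.3% lower. In Dexa the same sum was also above Ctr in each of the 3 replicates, at 477, 401 and 308 TPM, while Vcam1 differed from Ctr by -0.08 ± 0.22 on the log2 scale. The part of astrocyte RNA in the Vcam1 result was not tested. Of 8 pericyte and vascular leptomeningeal markers, 7 stayed under 1 TPM in every library. The sum of all 8 was 0.0911, 0.870, 1.44 and 0.227 TPM in Ctr-OPC replicates 1 to 4 and 0.331, 1.88, 2.10 and 1.58 TPM in IFN-γ-treated OPCs. It was thus higher with IFN-γ in each replicate, but among Ctr libraries lowest in replicate 1, where Vcam1 was highest. Lum, a matrix proteoglycan, rose from a mean of 0.0638 to 1.01 TPM and was called higher (log2 change 3.93 ± 0.39, adjusted p = 3.62e-05, edgeR). Dcn, another, was called lower (-1.35 ± 0.38, adjusted p = 0.0284, edgeR), at no more than 46 reads in any Ctr library. The call of Dcn was lost by DESeq2 with the block (adjusted p = 0.246) and by edgeR without it (adjusted p = 0.575). Mean TPM was also lower for Pdgfrb, Col1a1 and Col1a2, and higher for Rgs5, Kcnj8 and Anpep. The part of such cells in the Vcam1 result was not tested. Endothelial markers, which mark the cells best known for Icam1 and Vcam1, summed to 0.540 to 0.813 TPM in IFN-γ-treated OPCs against 0.586 to 0.732 TPM in Ctr-OPCs.

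Jam3 (JAM-C) encodes a junctional adhesion molecule that pairs with Jam2 and can bind Mac-1 (chr9:27097384-27155421, minus strand, ENSMUSG00000031990). Its level was 90.5, 116, 142 and 120 CPM in Ctr-OPCs and 79.3, 122 and 123 CPM in Dexa, against 179, 280, 305 and 267 CPM in IFN-γ-treated OPCs. The lowest IFN-γ library lay above the highest Ctr library, and replicate 1 was the lowest in each group. Jam3 rose by 1.13 ± 0.06 on the log2 scale, or 2.18-fold (SE; adjusted p = 2.06e-07, edgeR), by 0.98 to 1.27 within replicates. Without the block the adjusted p was 0.00493 by edgeR.

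Jam2 (JAM-B), the partner of Jam3, moved the other way (chr16:84774123-84825928, plus strand, ENSMUSG00000053062). It measured 222, 174, 160 and 171 CPM in Ctr-OPCs, 208, 160 and 176 CPM in Dexa and 156, 116, 106 and 140 CPM in IFN-γ-treated OPCs. The IFN-γ libraries were all below the Ctr libraries, by a narrow margin between IFN-γ replicate 1 and Ctr replicate 3. Jam2 fell by 0.49 ± 0.06 on the log2 scale, or 1.41-fold (SE; adjusted p = 1.05e-04, edgeR), and was lower in 4 of 4 replicates. Without the block the adjusted p was 0.0726 by edgeR and 0.0251 by DESeq2. Icam1, Jam2 and Jam3 were thus the 3 members whose Ctr and IFN-γ libraries did not overlap, as was so for 14.4% of all genes tested.

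Ncam1 encodes the neural cell adhesion molecule, the main carrier of polysialic acid, which weakens contacts between neural cells (chr9:49502136-49798925, minus strand, ENSMUSG00000039542). It measured 290, 399, 582 and 640 CPM in Ctr-OPCs and 314, 429 and 665 CPM in Dexa. In IFN-γ-treated OPCs it stood at 197, 210, 311 and 346 CPM. Replicates 1 and 2 lay below 3 and 4 in both groups, and the groups overlapped. Within replicates the IFN-γ library was lower by 0.56, 0.93, 0.90 and 0.89 on the log2 scale. Ncam1 fell by 0.82 ± 0.07 on the log2 scale, or 1.76-fold (SE; adjusted p = 1.22e-05, edgeR with the replicate block). Without the block the adjusted p was 0.136 by edgeR and 0.0589 by DESeq2.

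Alcam (CD166), which binds itself and the T cell surface protein CD6, gave the smallest of the called changes (chr16:52248996-52454074, minus strand, ENSMUSG00000022636). It stood at 99.5, 155, 200 and 184 CPM in Ctr-OPCs, at 96.8, 147 and 182 CPM in Dexa and at 63.7, 114, 145 and 149 CPM in IFN-γ-treated OPCs. Replicate 1 was lowest in every group, and 3 of the 4 IFN-γ libraries lay within the range of the Ctr libraries. Alcam fell by 0.46 ± 0.06 on the log2 scale, or 1.38-fold (SE; adjusted p = 2.22e-04, edgeR with the replicate block), and was lower in 4 of 4 replicates. Without the block the adjusted p was 0.466 by edgeR and 0.463 by DESeq2. On the TPM scale, where the median gene stood 0.160 higher on the log2 scale in IFN-γ-treated OPCs, Alcam was higher than Ctr in 1 of 4 replicates, while Ncam1 and Jam2 were lower in all 4.

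Several OPC markers were called lower in the same comparison as Ncam1, Alcam and Jam2. The summed level of all 8 was 808, 1492, 1886 and 1677 TPM in Ctr-OPC replicates 1 to 4 and 668, 1234, 1322 and 1443 TPM in IFN-γ-treated OPCs. The largest fall in TPM was that of Gpr17, from a mean of 349 to 103 TPM. Ptprz1 (166 to 222 TPM), Olig1 (315 to 337 TPM) and Olig2 (115 to 116 TPM) were not called. Of the 8 markers, 5 were called lower and 0 higher by edgeR with the block, beside 15.3% of all genes called lower, and the median log2 change was -0.58 over the list against -0.01 over all genes tested. Without the block edgeR called 0 of the 8 in either direction. Replicate 1 had the lowest marker sum in Ctr-OPCs, IFN-γ-treated OPCs and Dexa, and the lowest Ncam1 and Alcam counts in each of them. Jam2 went the other way and was highest in replicate 1 of each group (222 CPM in Ctr-OPCs, 208 in Dexa and 156 in IFN-γ-treated OPCs). The part of OPC content in these 3 results was not tested.

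Mcam (CD146), a receptor for laminin α4 in vessel walls, did not pass the test (chr9:44134469-44142727, plus strand, ENSMUSG00000032135). It measured 39.4, 27.1, 33.0 and 23.8 CPM in Ctr-OPCs, 38.1, 36.6 and 27.1 CPM in Dexa and 24.1, 27.3, 39.1 and 34.1 CPM in IFN-γ-treated OPCs. The groups lay over one another and the replicates did not share a direction, with log2 differences of -0.71, 0.01, 0.25 and 0.51. The fitted log2 change was 0.02 ± 0.17 (SE; adjusted p = 0.938, edgeR), with an interval of 2 SE from -0.32 to 0.36.

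**Figure D2:**
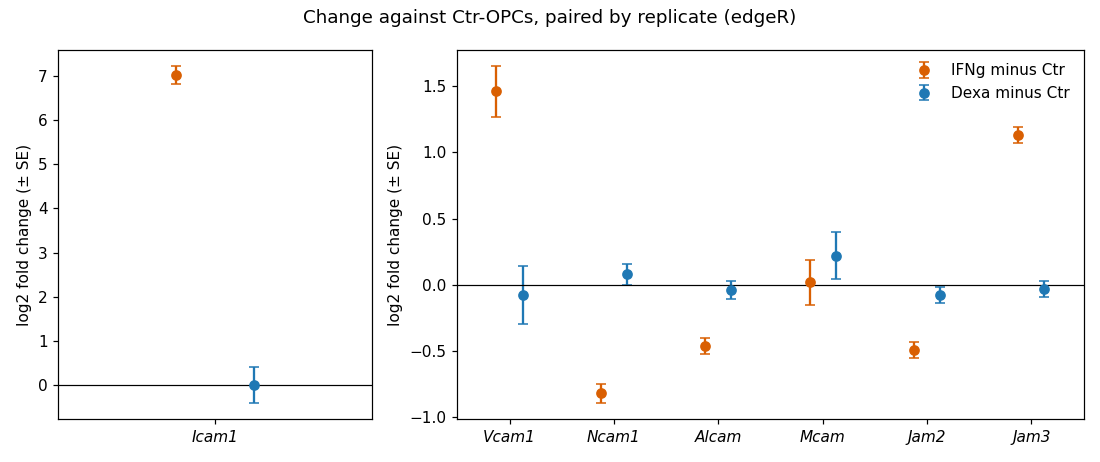
Log2 fold change against Ctr-OPCs of each member, fitted by edgeR blocked by replicate number, in IFN-γ-treated OPCs (orange) and Dexa (blue); bars are 1 SE, and Icam1 has an axis of its own. IFN-γ values run from -0.82 (Ncam1) to 7.01 (Icam1), whereas all Dexa values lie between -0.08 and 0.22.

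Dexamethasone left no member past the test. Of the 7 members 0 were called in Dexa against Ctr-OPCs by edgeR or by DESeq2, with or without the replicate block, and 0 had an unadjusted p under 0.05 in any of these fits. The background was 1.57% of genes called by edgeR, 1.31% higher and 0.262% lower, and 0.123% without the block. DESeq2 called 2.57% with the block and 0.547% without it. Fitted log2 differences were 0.01 ± 0.40 for Icam1, -0.08 ± 0.22 for Vcam1, 0.08 ± 0.08 for Ncam1, -0.04 ± 0.07 for Alcam, 0.22 ± 0.18 for Mcam, -0.08 ± 0.06 for Jam2 and -0.03 ± 0.06 for Jam3 (SE). The 2 SE intervals were narrowest for the 4 members with the most reads, from -0.08 to 0.24 for Ncam1, -0.18 to 0.10 for Alcam, -0.20 to 0.04 for Jam2 and -0.15 to 0.09 for Jam3. They were wider for Vcam1 (-0.52 to 0.36) and Mcam (-0.14 to 0.58). That of Icam1 ran from -0.79 to 0.81, since its Dexa libraries held 8, 32 and 2 reads, so a change of up to that size was not detectable at this depth.

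The response to IFN-γ also differed from that to dexamethasone when both were compared directly. IFN-γ minus Dexa, which shares its IFN-γ libraries with the comparison above, gave a log2 difference of 7.01 ± 0.25 for Icam1, 1.54 ± 0.22 for Vcam1, 1.16 ± 0.07 for Jam3, -0.90 ± 0.08 for Ncam1, -0.42 ± 0.06 for Jam2 and -0.42 ± 0.07 for Alcam. These 6 were called (largest adjusted p = 8.83e-04, edgeR with the replicate block), 3 higher and 3 lower, beside 33.7% of all genes tested (17.2% higher and 16.6% lower). Mcam again did not pass, with -0.20 ± 0.19 (adjusted p = 0.453, edgeR). Without the block, Icam1 and Jam3 were the 2 called by edgeR, beside 8.77% of all genes.

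Levels of different genes are compared in TPM, which accounts for transcript length. In Ctr-OPCs the order was Ncam1 (88.8 ± 29.4 TPM, SD, n = 4), Jam3 (44.3 ± 10.6), Alcam (35.7 ± 12.5), Jam2 (27.5 ± 2.53), Mcam (7.18 ± 1.62), Vcam1 (3.65 ± 1.98) and Icam1 (0.120 ± 0.060). Ranges of neighbours overlapped for Ncam1 and Jam3, Jam3 and Alcam, Alcam and Jam2, and Mcam and Vcam1, although Ncam1 was above Jam3 and Jam3 above Alcam in 4 of 4 libraries. Jam2 stood clear of Mcam, and Vcam1 clear of Icam1. Dexa kept the order of Ctr-OPCs, with Ncam1 at 88.6 TPM, Jam3 at 40.5 TPM and Icam1 at 0.102 TPM.

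In IFN-γ-treated OPCs Jam3 came first, at 109 ± 25.8 TPM (SD, n = 4), before Ncam1 at 52.8 ± 13.1 TPM, and the ranges of both did not overlap. Alcam (30.1 TPM) and Jam2 (23.0 TPM) followed, then Icam1 (17.5 ± 3.50 TPM), Vcam1 (10.5 ± 3.57 TPM) and Mcam (8.08 ± 1.55 TPM). Icam1 thus moved from the last place to the fifth. Its range overlapped with that of Jam2 above it and not with that of Vcam1 below it.

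**Figure D3:**
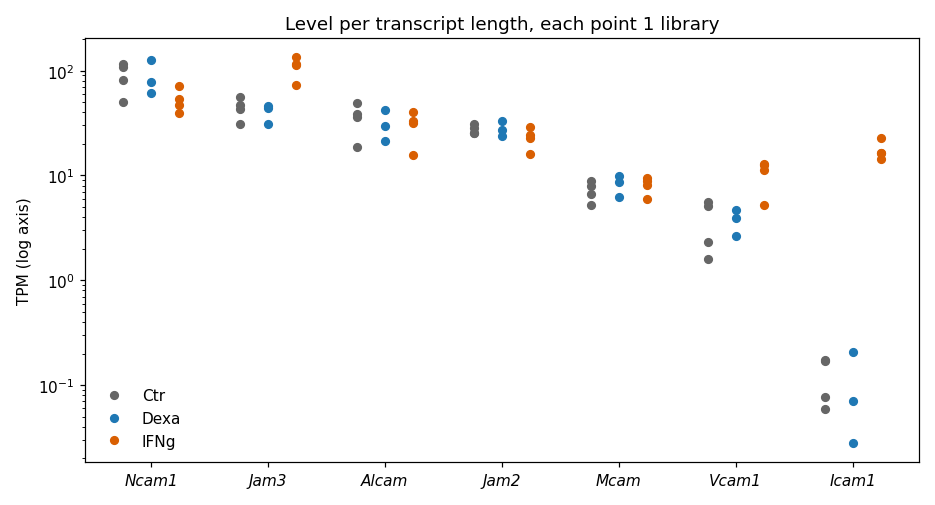
Level of each member in TPM on a log axis, each point 1 library, in Ctr-OPCs (grey), Dexa (blue) and IFN-γ-treated OPCs (orange), ordered by the Ctr mean. Icam1 lies between 0.028 and 0.207 TPM in all Ctr and Dexa libraries and between 14.5 and 22.6 TPM in the IFN-γ libraries.

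Most members were read from a single leading transcript, the transcript with the most estimated reads over all libraries. Icam1-201, Vcam1-201, Jam2-202 and Jam3-201 each took over 90% of their gene's reads in Ctr-OPCs (93.7%, 95.5%, 98.1% and 93.6%), Mcam-201 took 73.5% and Alcam-201 64.9%. The lead of Alcam-201 held for reads only. By mean share of TPM, which accounts for length, Alcam-207 was ahead in Ctr-OPCs, with 38.6% against 31.4% for Alcam-201. Ncam1 was divided among 4 transcripts. As background, Ncam1 is made in a short form held by a lipid anchor and in longer forms that cross the membrane. Ncam1-201, with the shortest reading frame of the 4 (725 codons), held 40.1 ± 4.33% of Ncam1 reads in Ctr-OPCs (SD, n = 4), before Ncam1-204 (848 codons) with 29.3 ± 5.57%, Ncam1-202 (849 codons) with 15.4 ± 0.96% and the incompletely annotated Ncam1-205 with 14.5 ± 2.11%.

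In IFN-γ-treated OPCs Ncam1-201 held 34.5 ± 2.88% and Ncam1-204 36.1 ± 2.81% of Ncam1 reads (SD, n = 4). By mean share of TPM, which accounts for transcript length, Ncam1-201 stayed ahead, with 50.5% against 21.4% for Ncam1-204. In Ctr-OPCs these TPM shares were 56.2% and 16.7%. The share of Ncam1-201 was 41.8%, 43.7%, 33.8% and 41.1% in Ctr-OPC replicates 1 to 4 and 37.4%, 33.9%, 30.8% and 35.9% in IFN-γ-treated OPCs. It was lower in each replicate, but Ctr replicate 3 lay among the IFN-γ libraries, and the difference of -5.59 percentage points did not pass (exact permutation test over unpaired libraries, two-sided, p = 0.114, adjusted over 7 members p = 0.600). The leading transcripts of the other 6 members did not pass either (adjusted p = 0.600 to 0.971 by the same exact test, whose smallest possible raw p is 0.0286). An exact sign-flip test over the 4 pairs, added after seeing the data, gave p = 0.125 for Ncam1-201, the smallest that 4 pairs allow, so the paired design cannot pass the threshold. In Dexa Ncam1-201 held 41.2 ± 0.82% (SD, n = 3). The division of reads between overlapping transcripts is an estimate of Salmon.

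**Figure D4:**
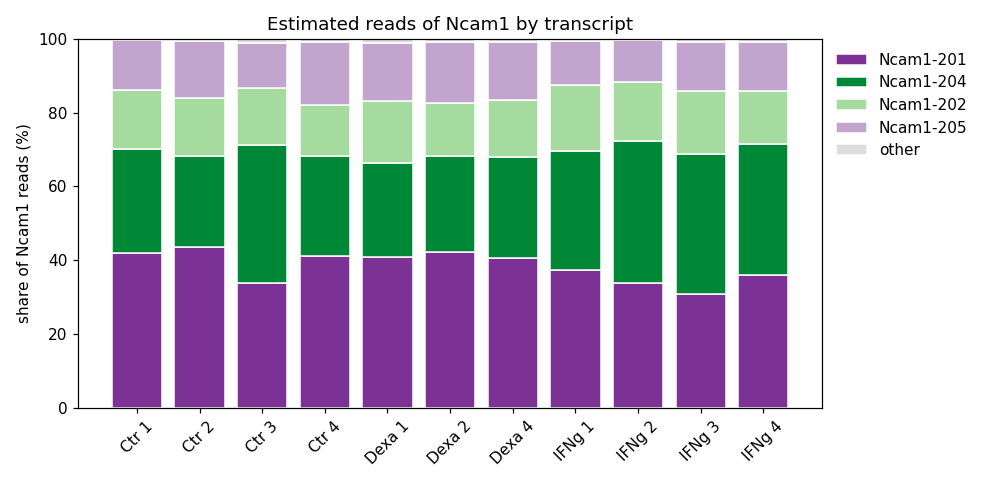
Share of the estimated Ncam1 reads of each library, in percent, by transcript; each bar is 1 of the 11 complete libraries. The lowest segment, Ncam1-201, spans 33.8% to 43.7% in Ctr-OPCs and 30.8% to 37.4% in IFN-γ-treated OPCs.

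Of 41 other listed immunoglobulin-type adhesion molecules, 35 were tested, and 6 were called higher in IFN-γ-treated OPCs and 13 lower by edgeR with the block, with a median log2 change of -0.17 against -0.01 over all genes tested. With the block 16% of all genes tested were called higher and 15.3% lower. Without the replicate block 1 of the 35 was called higher and 1 lower, beside 8.44% of all genes in either direction. The largest changes were falls of L1cam (-1.96 ± 0.27, adjusted p = 3.83e-04), Opcml (-1.60 ± 0.05, adjusted p = 6.36e-09) and Thy1 (-1.31 ± 0.16, adjusted p = 1.57e-04, all edgeR). Cadm2, Nectin1 and Cadm3, which join neighbouring cells by binding relatives of themselves, fell by 0.83, 0.81 and 0.81 on the log2 scale. The largest rise was that of Cd47, the ligand that restrains phagocytosis (0.70 ± 0.08, adjusted p = 6.26e-05, edgeR), named after its value was seen. Icam2, Icam4, Icam5, Madcam1 and F11r, close relatives of the members, had too few reads to test. In Dexa 1 of the 35 was called higher (Lsamp, 0.31 ± 0.06, adjusted p = 0.0343) and 3 lower (Thy1, -0.90 ± 0.17, adjusted p = 0.0355, Kirrel, -0.43 ± 0.08, adjusted p = 0.0353, and Cxadr, -0.25 ± 0.05, adjusted p = 0.0475, all edgeR). Over all genes tested edgeR with the block called 1.31% higher and 0.262% lower in Dexa. Without the block edgeR called 0 of the 35 in Dexa, and DESeq2 with the block called 3 higher and 3 lower.

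Of 16 listed counter-receptors that are not members, 7 had too few reads to test: the LFA-1 and Mac-1 chains Itgal, Itgam and Itgb2, the related Itgad and Itgax, the Alcam receptor Cd6 and Spn. They held at most 8 reads in any library. Of the 9 tested, 3 were called higher in IFN-γ-treated OPCs and 2 lower by edgeR with the block, with a median log2 change of 0.10, and 1 higher and 1 lower without it (Itgav and Itga4). Over all genes tested 16% were called higher and 15.3% lower with the block, and 8.44% in either direction without it. Itga4, the α chain of the Vcam1 receptor VLA-4, fell by 1.26 ± 0.22 on the log2 scale from a low level (0.770 to 0.387 TPM; adjusted p = 0.00166, edgeR), and the laminin receptor chain Itga6 by 0.55 ± 0.08. Itgb1, the β chain of VLA-4, was well expressed and not called (73.2 TPM in Ctr-OPCs and 80.1 TPM in IFN-γ-treated OPCs, log2 change -0.06 ± 0.05, adjusted p = 0.442, edgeR). Itgav (0.45 ± 0.09) and Lama4, the laminin chain bound by Mcam (0.37 ± 0.10, named after its value was seen), rose. Itga3 (0.55 ± 0.19) passed narrowly by edgeR with the block (adjusted p = 0.0464), and the call was lost by DESeq2 with the block (adjusted p = 0.0581) and by edgeR without it (adjusted p = 0.332). In Dexa 0 of the 9 were called by edgeR or DESeq2 with the block, and 1, Lama4, had an unadjusted p under 0.05 by edgeR.

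Genes that cut, modify or anchor the members were called in either direction. Of 18 listed, 17 were tested, with 6 higher, 2 lower and a median log2 change of 0.09 in IFN-γ-treated OPCs by edgeR with the block. Among all genes tested 16% were called higher and 15.3% lower. Without the block edgeR called 3 higher (St8sia4, Timp3 and Rhbdf2) and 0 lower. St8sia4, which adds polysialic acid to Ncam1, rose by 1.33 ± 0.09 on the log2 scale (1.05 to 2.95 TPM; adjusted p = 1.41e-06, edgeR), while Ncam1 itself was lower. Msn, the moesin that ties Icam1 and Vcam1 to the actin cortex, rose by 0.68 ± 0.10, the protease inhibitor Timp3 by 0.52 ± 0.05, and the proteases Mmp14 and Adam10 by 0.40 ± 0.10 and 0.23 ± 0.05. Rhbdf2, a partner of the sheddase Adam17, rose by 2.34 ± 0.35 but stayed at 0.184 TPM. Adam17 and Bace1, the 2 called lower and named after their values were seen, changed by -0.18 ± 0.05 and -0.19 ± 0.05. In Dexa 1 of the 17 was called, Ezr, the actin linker ezrin (0.60 ± 0.12, adjusted p = 0.0389, edgeR with the block), and 0 without the block. The share over all genes tested in Dexa was 1.57% by edgeR with the block.

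Of 9 regulators known from the promoters of Icam1 and Vcam1, 2 were called higher in IFN-γ-treated OPCs by edgeR with the block and 0 lower. The shares over all genes tested were 16% and 15.3%. Irf1 rose by 6.02 ± 0.08 on the log2 scale (adjusted p = 7.37e-12) and Stat3 by 1.78 ± 0.06 (adjusted p = 8.00e-09, both edgeR). The NF-κB genes Nfkb1, Nfkb2, Rela and Relb and their inhibitor Nfkbia differed by -0.18 to 0.00 and were not called. Sp1 (0.01 ± 0.05) and the glucocorticoid receptor Nr3c1 (-0.17 ± 0.06) were not called either. In Dexa 0 of the 9 regulators were called by edgeR, with an unadjusted p under 0.05 for 2, Nfkbia (adjusted p = 0.0725) and Nr3c1, and 1, Nfkbia, was called by DESeq2 with the block.

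**Figure D5:**
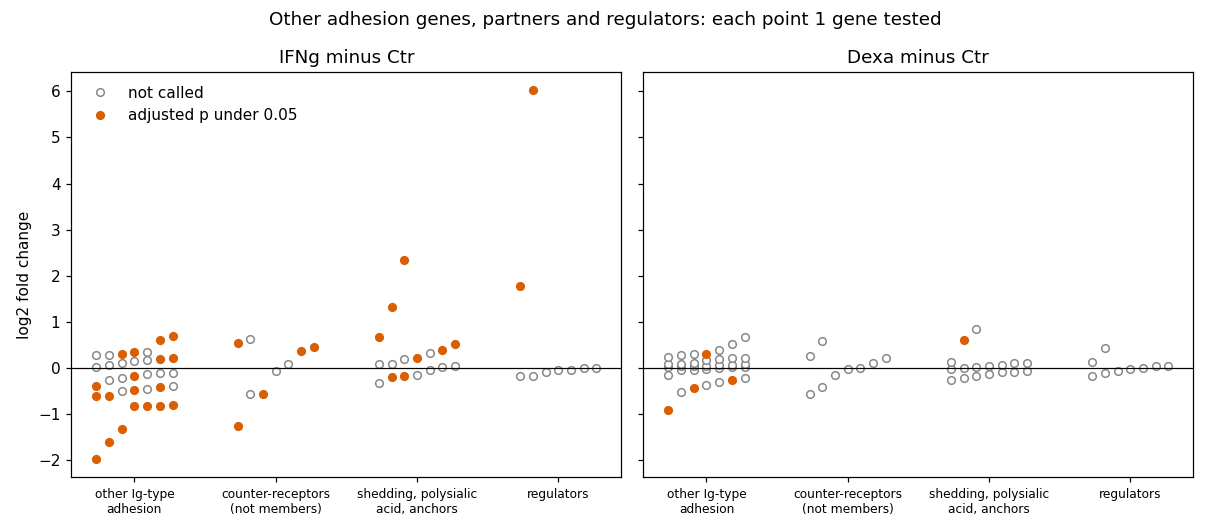
Log2 fold change against Ctr-OPCs of the reported genes of 4 lists, in IFN-γ-treated OPCs (left) and Dexa (right); orange points are called by edgeR at an adjusted p under 0.05 and the 7 members are left out. In IFN-γ-treated OPCs 13 of 35 other adhesion molecules lie below 0 as called and 6 above, and Irf1 stands at the top of the regulators; in Dexa 4 of the 35 are called.

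The genes whose log2 CPM followed each member most closely over the 11 complete libraries are given as a description, since all share the same libraries and treatments. For Icam1 they were Gm17334, Lgals9 and Nlrc5 (Pearson r of 0.995, 0.992 and 0.992). For Jam3 they were Rtcb, Vash2 and Cadps2 (0.992, 0.987 and 0.987), for Ncam1 Satb1, Map1a and Ccpg1 (0.995, 0.993 and 0.991), and for Alcam Unc5c, Kctd4 and Prkcq (0.994, 0.993 and 0.992). Vcam1 was followed by Lynx1, Bambi and Plce1 (0.978, 0.968 and 0.967) and Jam2 by Adcyap1r1, Kcnc4 and Fut8 (0.978, 0.964 and 0.962). Mcam had the loosest match, with Fbxo44, Gpt2 and Gstk1 at 0.841, 0.825 and 0.814. Among the members themselves, Jam2 and Jam3 gave the most negative coefficient (-0.946) and Icam1 and Jam3 the most positive (0.910), both over the same 11 libraries.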

How the data were processed

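OPC cultures of 3 groups were profiled by strand-specific total RNA-seq. The authors quantified transcripts with Salmon (version 0.8.2, per the labels) and deposited, for each library, an estimated count, a TPM value and an effective length per transcript. Transcript identifiers matched GENCODE mouse release M21 on GRCm38, with 0 transcripts lacking a gene. The 3 deposited comparison tables of the authors (mean normalized count, fold change, standard error, p-value) were not used.

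Estimated counts were summed per gene and rounded. The table of Dexa replicate 3 ends after 47855 of 141862 transcripts and was left out. A gene was tested when 4 or more of the 11 libraries held 10 or more counts. The quasi-likelihood test of edgeR (version 4.0.16; R 4.3.3) was fitted over all 3 groups with TMM factors, the replicate number as a block and Benjamini-Hochberg adjustment over 17919 genes; the study's methods name DESeq2, and DESeq2 (version 1.42.0) was an alternative. CPM are TMM-normalized. Fits were tested on simulated data with 200 changed genes, all in the IFN-γ group, against 5606 genes called in the real IFN-γ minus Ctr comparison. The simulation therefore does not show how the fits behave when so many genes change. TPM was summed per gene for levels.

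Labels give different litters as replicates. Deviations from the group means correlated at 0.414 to 0.745 between libraries of the same number and at -0.646 to 0.526 between others. The ranges overlap, with 0.526 between Ctr replicate 3 and Dexa replicate 4. Deviations also cancel within a group, which lowers the correlations between different numbers in advance. The block therefore rests on the shared replicate numbers, and these correlations do not establish it. All pairs of libraries within a group differed by more than sampling noise (chi-square per degree of freedom 23.6 to 229). Without molecular identifiers, read counts include PCR copies.

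The members, lists and tests were chosen with earlier results of these data known. All 7 members are named; from each other list, up to 6 genes called in IFN-γ minus Ctr with the largest absolute change and up to 3 in Dexa minus Ctr, and the regulators, of which 1 is not reported here. One listed symbol, Igsf5, matched 2 gene identifiers and was not used. Alternatives were tests without the block, DESeq2, other size factors, no count filter, length-scaled counts, only the 2 groups compared and each library left out in turn.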

Additional observations from a re-analysis of the deposited data

How the results depend on the processing

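The calls of the 7 members were the same in each of the 11 fits that left out 1 library (77 values per comparison), although Mcam in the IFN-γ comparisons and Icam1, Vcam1 and Jam3 in Dexa minus Ctr, none of them called, changed sign in some. Without the replicate block, IFN-γ minus Ctr lost the edgeR calls of Vcam1 (1.34, adjusted p = 0.0773), Ncam1 (-0.85, adjusted p = 0.136), Alcam (-0.44, adjusted p = 0.466) and Jam2 (-0.49, adjusted p = 0.0726), and DESeq2 lost Ncam1 (-0.85, adjusted p = 0.0589) and Alcam (-0.44, adjusted p = 0.463). IFN-γ minus Dexa lost the same members: by edgeR Vcam1 (1.25, adjusted p = 0.133), Ncam1 (-0.82, adjusted p = 0.171), Alcam (-0.27, adjusted p = 0.704) and Jam2 (-0.48, adjusted p = 0.0955), by DESeq2 Ncam1 (-0.82, adjusted p = 0.101) and Alcam (-0.27, adjusted p = 0.732). With the block, DESeq2, other size factors, no count filter, length-scaled counts and fits of only the 2 groups compared changed no call of a member. Icam1 had too few reads to be tested in the fit of only Ctr and Dexa.

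Genes called in IFN-γ minus Ctr numbered 5606, against 1513 (edgeR) and 2302 (DESeq2) without the replicate block. In IFN-γ minus Dexa they numbered 6045, against 1571 and 2345. Dexa minus Ctr was least stable: 282 genes, against 22 (edgeR) and 98 (DESeq2) without the block, 460 by DESeq2 with it, 642 with no count filter and 1608 with only the 2 groups compared. Leaving out 1 library gave 77 to 394 there, with 132 without Ctr replicate 1, 113 without Ctr replicate 2, 125 without Ctr replicate 4, 100 without Dexa replicate 1 and 77 without Dexa replicate 2. The causes were not tested. The planned comparison of Alcam and Jam2 with Dexa replicate 3 was not run, since its table lists neither gene. Icam1 in Ctr and Dexa, at 2 to 33 reads, is limited by depth.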
